A study of Arabidopsis thaliana with 4 samples.

Results

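A set of 135 genes stood higher in the replicate 2 library than in the replicate 1 library of both genotypes of the study. The set was chosen from the measured values. A gene entered it when its mean over the 4 libraries was at least 5 FPKM (fragments scaled to transcript length and to the mapped total of the library) and its level on the log2(FPKM + 1) scale was higher in replicate 2 by at least 1.5, within Col-0 and also within mos2-2. Of the 33557 loci listed, 14160 had that mean, and the 135 members made up 0.953% of them. Only 48 genes were lower in replicate 2 by the same limits. Since the replicate difference chose the members, it is described here and was not tested.

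The seedlings of Arabidopsis thaliana were 14 days old, and the day length was 16 h of light with 8 h of dark. Col-0 is the wild type. The line mos2-2 is in the Col-0 background and carries 1 T-DNA insertion allele, SALK_033856, in MOS2, an RNA-binding protein. Where 4 values of a gene follow one another, they are those of the first and second Col-0 library and then of the first and second mos2-2 library. Each genotype had 2 libraries of purified mRNA, and the labels give neither the hour of harvest nor the origin of each library, so the spread within a genotype may be technical. The tissue is the whole seedling, in which a change in the share of a tissue and a change in RNA per cell cannot be told apart.

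The deposited values summed to between 1350292 and 1522916 FPKM per library, and between 22411 and 23009 loci were above 0. The files hold no read counts. The commonest ratio between low values put Col-0 replicate 1 at 0.629 of the depth of Col-0 replicate 2, and mos2-2 replicates 1 and 2 at 1.01 and 1.04 of it, so that the lowest levels in Col-0 replicate 1 are the least precise. MOS2 itself was at 50.3, 36.9, 2.16 and 1.16 FPKM, lower in both libraries labelled as the mutant. Marker genes of other organs did not follow the replicate number. The summed level of 10 root markers was 34.5, 44.5, 32.1 and 22.1 FPKM. That of 7 flower markers was 66.3, 25.7, 9.36 and 49.0 FPKM in the same order, lower in replicate 2 of Col-0 and higher in replicate 2 of mos2-2. The 4 seed storage genes summed to at most 1.02 FPKM in any library, with 3 of the 4 listed at 0 in all libraries. What part organ makeup has in the replicate difference was not tested.

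Many of the longer members belong to groups whose transcript levels are known to follow the day. The plant circadian clock holds a loop of transcription factors. In it, genes that peak near dawn, such as CCA1, and genes that peak towards evening, such as TOC1, repress one another. LNK proteins act with RVE factors to activate evening genes. Light and the clock together set the transcripts of the light-harvesting antenna of the chloroplast and of B-box zinc finger proteins, which tune the response of seedlings to light. Other members belong to families that answer to metal supply, cold or jasmonate.

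The members fell into 2 classes by transcript length, as the plot of length against replicate difference shows. Of the 135 members, 97 had a spliced transcript of at least 300 nt, and all 97 were protein-coding genes. The other 38 were shorter or had no match in the annotation. They comprised 25 transfer RNA genes, 5 small nucleolar RNA genes, 3 short protein-coding genes, 1 microRNA gene and 4 loci without a match. In both replicate 1 libraries 33 of these 38 were listed at 0, against 1 of the 97 longer members, AT1G34047.

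**Figure D1:**
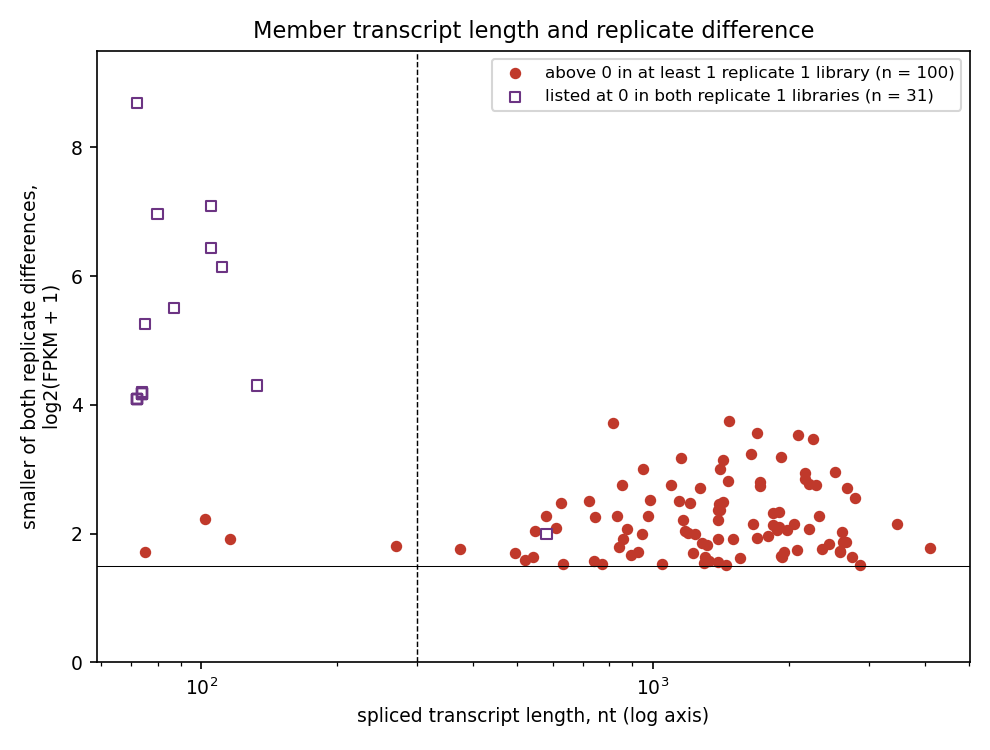
Length of the spliced transcript (nt, log axis) against the smaller of the replicate differences in Col-0 and mos2-2 (log2(FPKM + 1)) for the 131 members with an annotated length. Open squares are the 31 listed at 0 in both replicate 1 libraries, filled points the other 100, the dashed line marks 300 nt and the solid line the limit of 1.5; the differences above 4 all belong to short transcripts.

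The largest replicate differences of the whole set belonged to these short RNAs. AT3G52345, a tRNA-Cys gene of 72 nt on chromosome 3, was listed at 0 in both replicate 1 libraries and stood at 421 FPKM in Col-0 replicate 2 and 412 FPKM in mos2-2 replicate 2. MIR398a (AT2G03445), the precursor of a microRNA that targets copper superoxide dismutase transcripts, was listed at 0, 136, 0 and 172 FPKM. The small nucleolar RNA gene AT2G35742 was listed at 0 in replicate 1 and at 132 and 124 FPKM in replicate 2. The mitochondrial loci ATMG00100 and ATMG00700 shared 1 set of values, at 0 in replicate 1 and at 97.2 and 90.5 FPKM in replicate 2. AT3G25221, AT3G06019, ATMG00230, the tRNA-Ser gene AT2G07757 and the tRNA-Tyr gene AT2G07792 had the same order of libraries, with values between 37.3 and 119 FPKM in replicate 2 and 0 in replicate 1.

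The level of a short RNA can rest on very few fragments, and many of these loci share their sequence. A block of 12 tRNA-Gly loci, spread over all 5 chromosomes, had 1 sequence of 72 nt and identical values, 0, 17.2, 0 and 16.0 FPKM. A second block of 9 tRNA-Thr loci held 3 distinct sequences and had 0, 36.7, 0 and 17.1 FPKM at every locus. The first locus of each block is shown because its copies enter the set as separate members (AT1G08240 at chr1:2588525-2588596, plus strand, and AT1G49280 at chr1:18230479-18230552, minus strand, TAIR10.1). The mature arms of MIR398a are shown with the seed, bases 2 to 8, in capitals, as the genome has them (chr2:1040948-1040968 for 5p and chr2:1041012-1041032 for 3p, plus strand).
AT1G08240: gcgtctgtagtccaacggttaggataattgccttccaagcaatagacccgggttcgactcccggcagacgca
AT1G49280: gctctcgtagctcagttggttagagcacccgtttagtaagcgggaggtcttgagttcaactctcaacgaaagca
ath-miR398a-5p: aAGGAGTGgcatgtgaacaca
ath-miR398a-3p: tGTGTTCTcaggtcacccctt

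The 12 tRNA-Gly loci summed to 206 FPKM in Col-0 replicate 2 and to 192 FPKM in mos2-2 replicate 2. Of the other 72-nt loci above 0 in these libraries, 18 of 21 and 17 of 18 had values that were that sum multiplied or divided by a whole number, within 0.01; AT3G52345 was among those that did not. The deposited values of the 12 thus added up to 1 step of the scale, divided equally among the copies. Some loci of 80 nt showed steps as well. AT2G35742 was at 124 FPKM in mos2-2 replicate 2, where AT1G75163 and AT3G58193 were both at 248 FPKM, but AT2G35747 was at 178 FPKM there, between these values. Other lengths were not examined for steps. The 38 short or unmatched members are counted here, and the rest of the text is mostly about the 97 longer ones.

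Among the 97 longer members the median replicate difference was 2.73 on the log2(FPKM + 1) scale in Col-0 and 2.39 in mos2-2, against -0.18 and -0.10 over all 14160 genes that averaged at least 5 FPKM. The difference was larger in Col-0 for 62 members and larger in mos2-2 for 35. For 94 of the 97, both replicate 2 libraries stood above both replicate 1 libraries. The lowest library was Col-0 replicate 1 for 74 members and mos2-2 replicate 1 for the other 23, while the highest was mos2-2 replicate 2 for 59 and Col-0 replicate 2 for 38. Their summed level was 7029, 47296, 5057 and 25084 FPKM. A few abundant genes weigh heavily in these sums, such as PDF1.2 at 2632, 12697, 28.7 and 239.8 FPKM. LHCB1.1, at 1061, 6932, 2252 and 8000.1 FPKM, is another. The median mean level of the 97 members, 19.4 FPKM, was close to the 18.5 FPKM of all genes of that length and level. They lay on all 5 chromosomes, 26, 11, 16, 9 and 35 from chromosome 1 to chromosome 5, which was 0.725%, 0.531%, 0.589%, 0.432% and 1.11% of the genes of that length and level there.

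**Figure D2:**
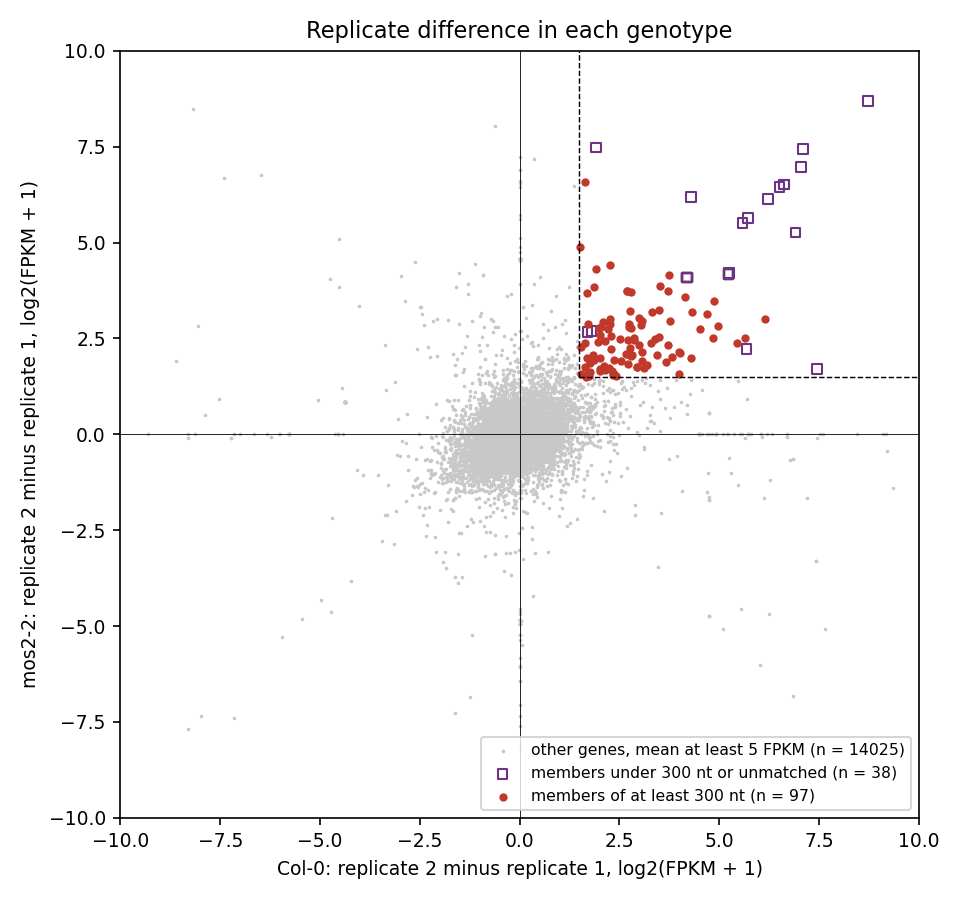
Replicate 2 minus replicate 1 on the log2(FPKM + 1) scale in Col-0 (horizontal) and mos2-2 (vertical) for the 14160 genes averaging at least 5 FPKM; red points are the 97 members of at least 300 nt, open squares the 38 short or unmatched members, grey points the other 14025 genes, and dashed lines the limit of 1.5. Most grey points lie around 0 on both axes, and the red points reach 6.14 in Col-0 and 6.59 in mos2-2.

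The limit cut through a continuous range. The members nearest to it were SERAT2;1, a serine acetyltransferase of cysteine synthesis, with a smaller difference of 1.51, the ABC protein gene ABCF5 with 1.52, and the lipid transfer protein gene LTP3 with 1.52. SPD1, AT1G80130 and the expansin gene EXPA8 missed it with 1.48, 1.47 and 1.47. AT5G01790, AT5G60680 and CDF1 differed most equally in both genotypes, by 2.01 and 1.99, by 1.54 and 1.56, and by 2.52 and 2.49 in Col-0 and mos2-2. AT3G13240, LTP3 and ZIP9 were the most unequal in favour of mos2-2, and LHCB2.2, LHCB2.1 and DREB1A in favour of Col-0.

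Morning genes of the clock were among the longer members. Of 14 listed morning genes, 11 had a mean of at least 5 FPKM, and 6 of the 11 were members: LNK1, LNK2, LNK3, LNK4, RVE7 and CCA1. LNK3 (AT3G12320, chr3:3923515-3925502, plus strand) was the longer member with the largest smaller difference. Its level was 0.401, 17.8, 2.64 and 63.6 FPKM. Both replicate 2 libraries stood far above both replicate 1 libraries, and at each replicate number mos2-2 stood above Col-0. LNK2 had the same order of libraries, with 0.997, 26.3, 5.72 and 51.3 FPKM. LNK4 stood at 2.14, 20.8, 2.54 and 45.1 FPKM, and LNK1 at 0.481, 17.9, 5.26 and 21.9 FPKM. CCA1, a Myb-related factor at the core of the loop, was low except in mos2-2 replicate 2, at 0.485, 4.41, 0.760 and 24.2 FPKM. Its relative RVE7 stood at 0.819, 11, 3.08 and 16.5 FPKM.

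Other morning genes missed the rule through their level, in 1 genotype or in both. PRR9, a pseudo-response regulator, differed by 2.74 and 2.79 but had a mean under 5 FPKM, with 0.126, 6.51, 0.724 and 10.9 FPKM. PRR7 differed by 3.10 in Col-0 and 0.84 in mos2-2, at 5.04, 50.7, 21.1 and 38.5 FPKM. LHY, the partner of CCA1, stood at 0.0880, 1.20, 0.644 and 4.80 FPKM. RVE4 differed by 0.60 and 0.96 and AT5G52660 by 0.39 and -0.19, under the limit in both genotypes. RVE2 went the other way, by -3.54 and -1.05. Over the 11 morning genes the median difference was 2.73 in Col-0 and 2.10 in mos2-2, and 9 of the 11 were above 0 in each genotype.

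None of the 14 evening genes was a member, and their replicate differences had no common direction. Their median was 0.19 in Col-0 and -0.86 in mos2-2, with 8 above 0 in Col-0 and 3 in mos2-2. Some genes kept their direction in both genotypes and others did not. GI stood at 1.29, 29.9, 17.6 and 11 FPKM. FKF1, a blue-light receptor that acts with GI, stood at 8.00, 51.6, 25.4 and 11.5 FPKM. PRR5 was at 6.45, 101, 46.2 and 62.4 FPKM. TOC1 was lower in replicate 2 of both, at 46.1, 35.8, 67.9 and 14.5 FPKM, and BOA, a relative of LUX, differed by -2.41 and -2.10. The plot of clock genes sets these differences side by side.

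**Figure D3:**
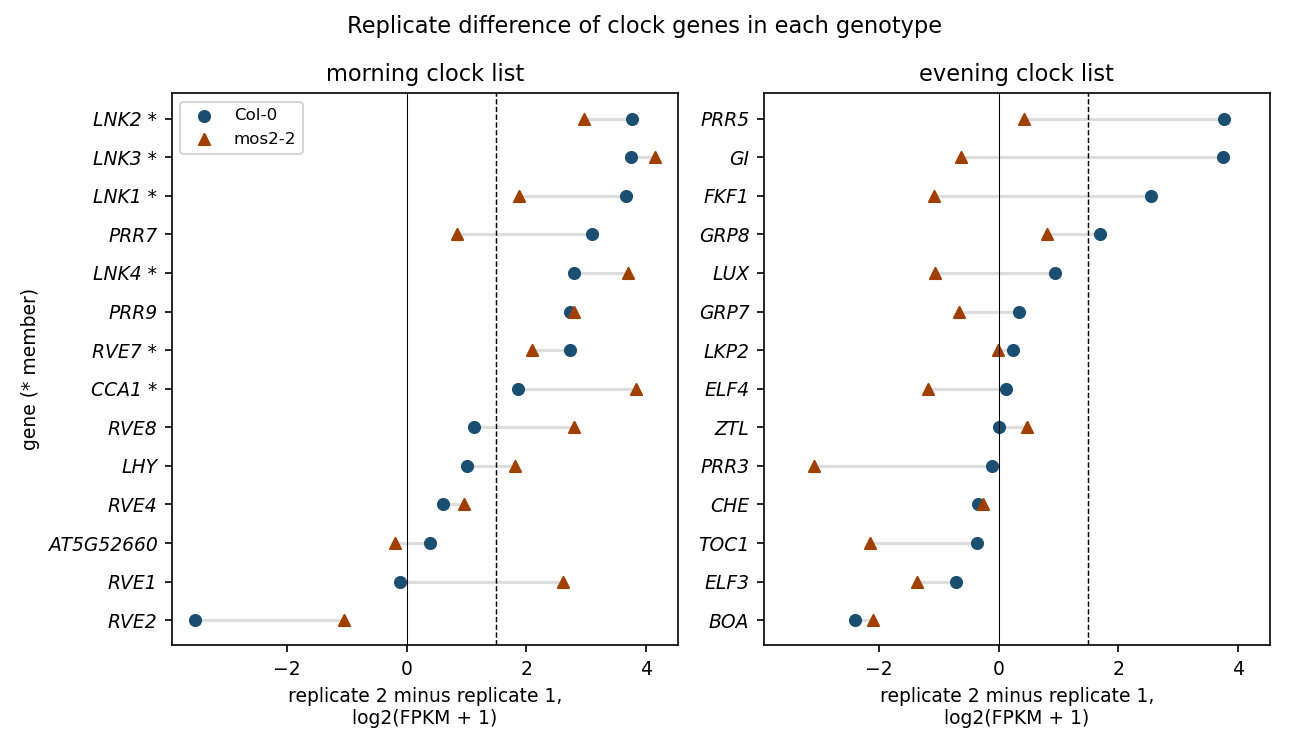
Replicate 2 minus replicate 1 on the log2(FPKM + 1) scale for 14 morning genes (left) and 14 evening genes (right), with circles for Col-0 and triangles for mos2-2; a star marks a member and the dashed line the limit of 1.5. The morning members lie right of the limit in both genotypes, while PRR5, GI, FKF1 and GRP8 do so in Col-0 only.

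CDF proteins, which repress the flowering gene CONSTANS and are known to be abundant in the morning, were among the members. CDF1 was at 0.973, 10.3, 2.07 and 16.3 FPKM and CDF3 at 1.48, 31.8, 10.4 and 56.5 FPKM. They were 2 of the 5 genes of the CONSTANS and CDF list with a mean of at least 5 FPKM. CDF2 had a lower mean and differed by 1.39 and 1.89. CO itself was low, and was higher in replicate 1, at 7.69, 0.506, 2.35 and 0.577 FPKM.

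Short stretches of promoter are shown for LNK3, CCA1, RVE7 and STO, which carry letters known as binding motifs of light and clock factors there. Other members with large replicate differences did not: neither of the 2 motifs marked was found in LEA3, BBX16, AT2G15020, NCED4, ZIP4, CIPK20, BBX29 or BBX28. Coordinates are those of TAIR10.1, and capitals mark CACGTG, the G-box, in LNK3 (chr3:3923325-3923395, plus strand) and CCA1 (chr2:19245381-19245431, plus strand). They mark AAAATATCT, the evening element, in RVE7 (chr1:6308263-6308323, minus strand) and STO (chr1:1830003-1830063, minus strand).
LNK3: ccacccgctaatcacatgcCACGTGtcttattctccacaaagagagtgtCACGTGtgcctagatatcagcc
CCA1: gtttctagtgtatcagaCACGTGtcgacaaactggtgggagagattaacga
RVE7: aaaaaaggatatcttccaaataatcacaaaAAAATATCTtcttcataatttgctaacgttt
STO: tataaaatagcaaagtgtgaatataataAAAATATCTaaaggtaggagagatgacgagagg

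In LNK3 the G-boxes begin 171 and 141 bases before the annotated start, and in CCA1 193 bases before it. The evening elements begin 50 bases before the start of RVE7 and 52 bases before that of STO. In the 250 bases before the start, 12 of the 97 longer members (12.4%) held a G-box on either strand, against 6.49% of all 27443 promoters read. The evening element was in 6 (6.19%) against 2.36%. The hormone up at dawn element, CACATG, was in 21 (21.6%) against 11.1%, and the morning element, CCACAC, in 10 (10.3%) against 6.17%. These 3 hexamers share letters and can overlap. The I-box GATAAG was in 15 (15.5%) against 12.3%, and the telo-box AAACCCTAA in 3 (3.09%) against 2.61%. The CCA1-binding site AAAAATCT, in 6.19% against 6.69%, the dehydration-responsive core CCGAC, in 11.3% against 12%, and the heat shock letters GAANNTTC, in 9.28% against 9.55%, were near the share of all promoters. The site II element TGGGCC was in 9.28% against 13.7%. Members had to average at least 5 FPKM, and 13429 of the promoters belong to genes that do. Among these the G-box was in 7.52%, the evening element in 2.79%, CACATG in 11.1% and CCACAC in 6.28%. The I-box was in 13.1%, the telo-box in 1.98% and the CCA1-binding site in 6.85%. The dehydration-responsive core was in 13.3%, the heat shock letters in 9.26% and the site II element in 18.2%. These matches are descriptions, over members that share families and neighbours, and no test was made of them.

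Genes of B-box proteins and of light signalling were members too. Of 23 listed genes of light signalling and B-box proteins with a mean of at least 5 FPKM, 5 were members, namely STO, STH, BBX28, BBX29 and SPA1. BBX16 and BBX18, which were not on the list, were members as well. BBX28 (AT4G27310, chr4:13675537-13677055, plus strand) stood at 1.46, 63.2, 12.7 and 119 FPKM. BBX16 stood at 0.346, 22.6, 2.38 and 39.1 FPKM, and BBX18 at 1.09, 13.1, 2.74 and 26.5 FPKM. BBX29 was the exception in its genotype order, with 0.231, 11.2, 0.145 and 9.38 FPKM, slightly lower in mos2-2 at both numbers. STO, also known as BBX24, was the most abundant, at 20.7, 181, 64.5 and 248 FPKM.

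STH, a relative of STO, stood at 1.55, 15.6, 4.74 and 75.9 FPKM. SPA1, a partner of the ubiquitin ligase COP1 in the dark, was at 3.34, 17.9, 5.11 and 19.9 FPKM. Photoreceptors and COP1 itself were not members. PHYA differed by 0.41 in Col-0 and -0.70 in mos2-2, PHYB by 0.73 and 0.55, CRY1 by 0.57 and 0.30, and COP1 by 0.35 and 0.18. The growth regulator PIF4 differed by 3.38 in Col-0 and by only 0.30 in mos2-2, at 7.89, 91.2, 55.3 and 68.3 FPKM.

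The most abundant members outside the defensins were antenna genes. LHCB2.1 (AT2G05100, chr2:1822990-1824480, minus strand), which encodes a protein of the major light-harvesting complex of photosystem II, stood at 42.2, 3051, 632 and 5084 FPKM. Its level in Col-0 replicate 1 was far below the other 3, and the replicate difference in Col-0, 6.14, was the largest in Col-0 among the longer members. LHCB2.2 stood at 55.4, 2834, 852 and 4858 FPKM, and LHCB2.3 at 22.9, 752, 113 and 804 FPKM. LHCB1.1 stood at 1061, 6932, 2252 and 8000.1 FPKM. The transcripts of LHCB2.1 and LHCB2.2 were 94.3% identical over 1035 nt, so reads may be divided between them. Their sum, 97.6, 5885, 1484 and 9941 FPKM, met the rule too. LHCB1.1 was 93.6% identical to LHCB1.2, which was not a member and differed by 2.63 in Col-0 and 1.22 in mos2-2. The sum of LHCB1.1 and LHCB1.2 differed by 2.66 and 1.51, just past the limit in mos2-2.

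LHCB1.1, LHCB2.1, LHCB2.2 and LHCB2.3 were the 4 members among 21 light-harvesting genes, all of which had a mean of at least 5 FPKM. The others differed less in mos2-2 than the limit, and their order of libraries was often alike. LHCB1.4 stood at 330.5, 4105, 2133 and 3427 FPKM and LHCB3 at 284, 4298, 1809 and 4811 FPKM. The median over the 21 was 2.40 in Col-0 and 0.76 in mos2-2, with 18 above 0 in Col-0 and all 21 in mos2-2. LHCB4.3, LHCA5 and LHCA6 differed by -1.40, -0.45 and -0.36 in Col-0. Of 28 genes of the photosystem cores and electron transport none was a member, with medians of 0.63 and 0.15, and none of 14 Rubisco and Calvin cycle genes, with medians of -0.44 and 0.08.

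Of 13 chlorophyll synthesis genes, 1 was a member. It was CH1, which makes chlorophyll b, at 8.33, 71.0, 31.1 and 107 FPKM. The median over the 13 was 1.38 in Col-0 and 0.00 in mos2-2, with 10 above 0 in Col-0 and 7 in mos2-2. PORA, GUN4 and GUN5 differed by 3.53, 1.38 and 2.18 in Col-0 and by 1.42, 1.73 and 0.44 in mos2-2, short of the rule. HEMA1 and PORB differed by 1.66 and 1.72 in Col-0 and by -0.22 each in mos2-2, and PCB2 and CHLD by 0.01 and -0.23 in Col-0 and by -0.72 and -0.38 in mos2-2. Among other genes of pigments and the chloroplast, ABA1, a zeaxanthin epoxidase of the xanthophyll cycle, was a member at 12.8, 120, 47.0 and 158 FPKM. NCED4, a carotenoid cleavage dioxygenase, was among the largest, at 6.10, 208, 12 and 143 FPKM. GLK2, a transcription factor of chloroplast development, was at 20.9, 95.5, 32.1 and 177 FPKM. SIGE, a plastid sigma factor known to respond to blue light, was at 1.08, 16.4, 2.63 and 26.9 FPKM.

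**Figure D4:**
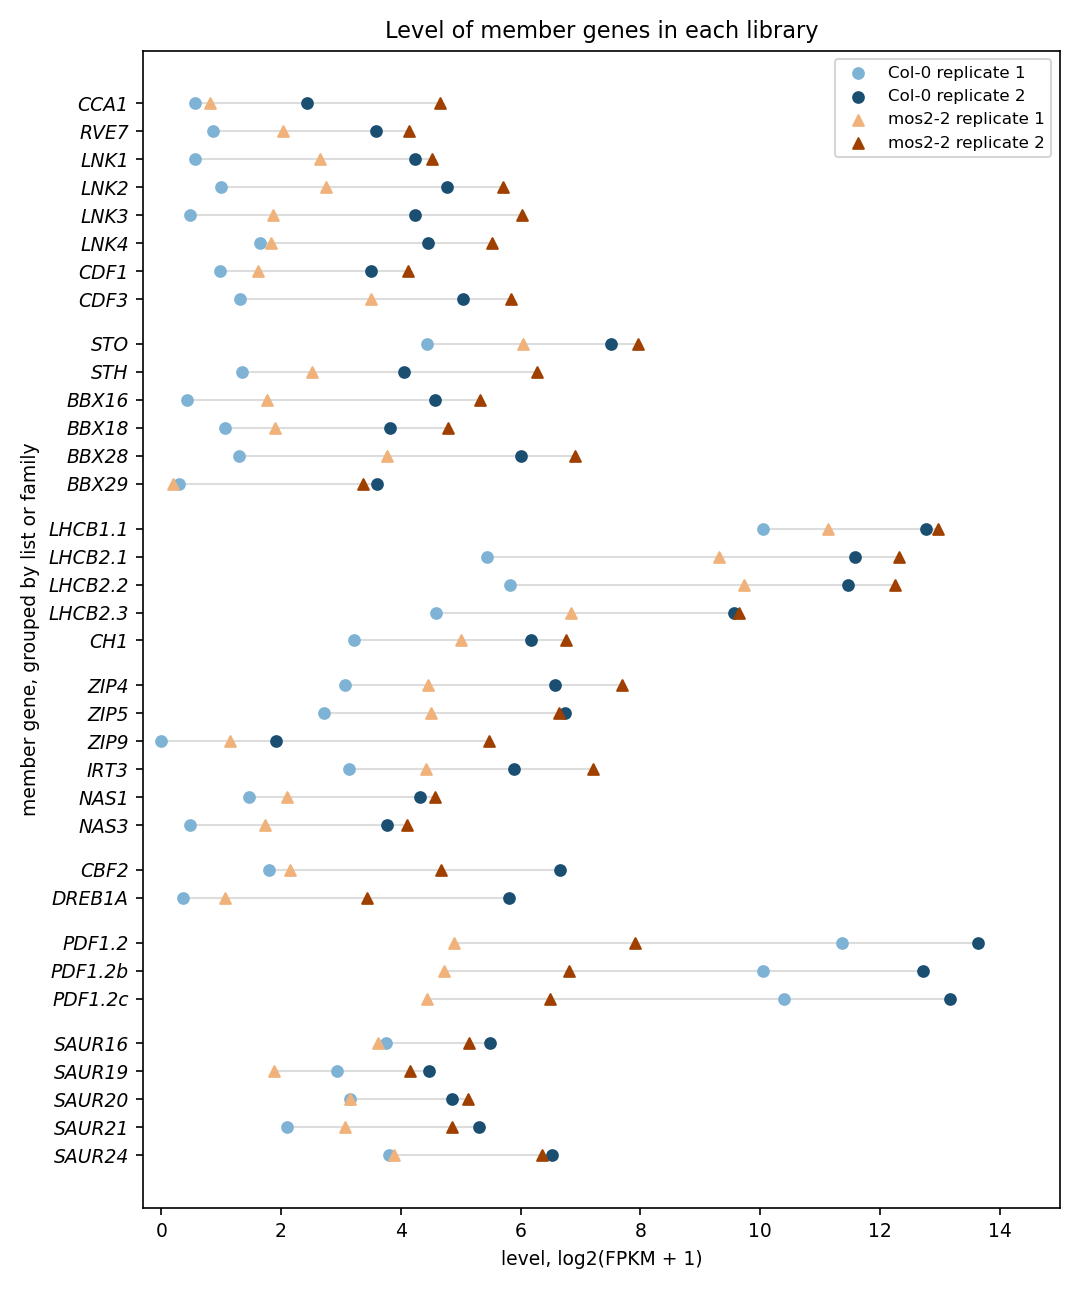
Level on the log2(FPKM + 1) scale of 35 longer members in each library, grouped as clock and CDF, B-box, antenna and chlorophyll b, metal, CBF, defensin and SAUR genes. Circles are Col-0 and triangles mos2-2, light for replicate 1 and dark for replicate 2; the dark symbols lie right of the light ones in every gene but the 3 defensins, whose mos2-2 values lie left of both Col-0 values.

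Genes of zinc and metal uptake were a further group, noticed after the members had been listed. Of the 15 genes of the ZIP family of metal transporters, 7 had a mean of at least 5 FPKM, and 4 of the 7 were members. ZIP4 (AT1G10970, chr1:3665087-3667139, minus strand) stood at 7.42, 94.6, 20.9 and 205 FPKM. IRT3 stood at 7.82, 58.2, 20.4 and 147 FPKM, and ZIP5 at 5.58, 107, 21.7 and 98.3 FPKM. ZIP9 was listed at 0 in Col-0 replicate 1 and stood at 2.77, 1.23 and 43.5 FPKM in the other libraries, so most of its level came from mos2-2 replicate 2. ZIP1 fell short with 1.51 and 1.30. IRT1, the main iron transporter of the root, was at most 1.16 FPKM in any library.

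Nicotianamine synthases make a chelator that carries zinc and iron in the plant. NAS1 was at 1.76, 19.1, 3.30 and 22.6 FPKM and NAS3 at 0.389, 12.6, 2.31 and 16.2 FPKM. NAS2 and NAS4 were not members and differed by 1.24 and 0.79 in Col-0 and by 3.85 and 3.23 in mos2-2. FRO7, a ferric reductase of the chloroplast, was a member at 24, 77.2, 30.3 and 105 FPKM.

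The letters TGTCGACA, the core of the element that bZIP19 and bZIP23 bind under zinc deficiency, were searched after these genes had been seen. They were in 4 of the 97 promoters (4.12%), against 0.262% of all promoters, on either strand. The stretch of 60 bases before the start is shown for ZIP4 (chr1:3667140-3667199, minus strand) and IRT3 (chr1:22447300-22447359, minus strand), with these letters in capitals.
ZIP4: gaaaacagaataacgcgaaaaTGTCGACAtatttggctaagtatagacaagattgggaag
IRT3: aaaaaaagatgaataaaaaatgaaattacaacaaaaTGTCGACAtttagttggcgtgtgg

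The letters begin 39 bases before the start of ZIP4 and 24 bases before that of IRT3. The other matches were in AT1G20380 and in CCA1, where they overlap the G-box shown above. ZIP5, ZIP9, NAS1 and NAS3 had no match in this window.

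Cold-response factors were members, but the genes of the cold and drought list that they are known to act on were not. CBF2 (AT4G25470) and DREB1A (AT4G25480), also called CBF3, lie 1774 nt apart on chromosome 4 (chr4:13015250-13016235 and chr4:13018010-13019400, both minus strand). CBF2 stood at 2.47, 99.5, 3.44 and 24.5 FPKM. DREB1A stood at 0.289, 55.1, 1.09 and 9.81 FPKM. For both, the order of the genotypes turned with the replicate number, mos2-2 being higher in replicate 1 and lower in replicate 2. CBF1, the third gene of the cluster, differed by 5.46 in Col-0 and missed the limit in mos2-2 with 1.38.

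These were 2 of 16 cold and drought genes averaging at least 5 FPKM. COR15A, COR15B and COR78, known targets of the CBF factors, differed by 0.94, 1.01 and 1.05 in Col-0 and by -0.73, -1.70 and -1.50 in mos2-2. COR27 was lower in replicate 2 of both, by -1.54 and -3.89. Other members linked to stress signalling were the protein kinase genes CIPK20, at 0, 19.1, 0.187 and 9.80 FPKM, and CIPK14, at 7.49, 34.8, 3.18 and 31.0 FPKM. The zinc finger factor gene ZAT6 was at 33.4, 171, 19.8 and 63.7 FPKM.

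PDF1.2 and its relatives PDF1.2b and PDF1.2c, plant defensins that answer to ethylene and jasmonate through GCC-box binding factors, were among the highest members in Col-0. PDF1.2 (AT5G44420, chr5:17906968-17907638, minus strand) stood at 2632, 12697, 28.7 and 239.8 FPKM. PDF1.2b stood at 1050.3, 6705, 25.3 and 111 FPKM, and PDF1.2c at 1344, 9226, 20.7 and 88.7 FPKM. In no other longer member did the mutant libraries both fall under the wild-type ones. The transcripts were 85.7% to 87.0% identical, under the 90% used here for near-identical partners. PDF1.2 and PDF1.2c lie 1211 nt apart.

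They were 3 of 17 ethylene and jasmonate defence genes averaging at least 5 FPKM. PDF1.3, PR4, HCHIB and ORA59 differed by 2.59, 1.95, 2.45 and 2.11 in Col-0 but by 0.33, -0.18, -0.48 and 0.75 in mos2-2. Of jasmonate synthesis genes, LOX2 differed by 0.17 and -0.14, AOS by 0.26 and 0.58, and OPR3 by -0.85 and -0.78. VSP1 and THI2.1, which answer to jasmonate, differed by -0.39 and 0.50 in Col-0 and by 2.55 and 4.11 in mos2-2. The GCC-box GCCGCC was in 4 of the 97 promoters (4.12%), against 1.87% of all. The stretches with it are shown for PDF1.2 (chr5:17907833-17907883, minus strand) and PDF1.2b (chr2:11088953-11089008, plus strand), with the box in capitals.
PDF1.2: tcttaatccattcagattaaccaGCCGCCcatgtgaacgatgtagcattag
PDF1.2b: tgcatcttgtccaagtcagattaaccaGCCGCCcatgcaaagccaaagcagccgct

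The box begins 222 and 143 bases before the annotated starts. PDF1.2c had no match in its 250 bases.

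Among auxin response genes, the members were SAUR genes, small proteins that promote cell expansion. Of 21 listed genes averaging at least 5 FPKM, 5 were members: SAUR16, SAUR19, SAUR20, SAUR21 and SAUR24. SAUR24 stood at 13.0, 91.4, 13.7 and 80.6 FPKM, SAUR21 at 3.31, 38.7, 7.34 and 28 FPKM, and SAUR20 at 7.92, 27.9, 7.86 and 33.9 FPKM. SAUR19 stood at 6.66, 21.2, 2.67 and 16.8 FPKM. The order of the genotypes within a replicate number differed among these genes. SAUR22 and SAUR23 of the same cluster differed by 2.47 and 2.10 in Col-0 and by 1.09 and 1.07 in mos2-2. SAUR19, SAUR20 and SAUR21 are neighbours on chromosome 5, with gaps of 2777 and 1566 nt, and SAUR19 and SAUR24 were 93.0% identical over 569 nt. The sums of SAUR24 with its near-identical partners met the rule, with 2.31 and 2.39. No IAA repressor gene was a member. IAA29, IAA1 and IAA6 differed by 3.19, 1.83 and 1.77 in Col-0 but by 0.18, 0.73 and -0.17 in mos2-2, AXR3 by 0.77 and 1.49, and IAA7 by -0.29 and -0.15. SAUR65 and PRE1, a helix-loop-helix protein of cell elongation, were members off the list, PRE1 at 2.85, 21.5, 6.37 and 26.9 FPKM.

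Several of the other leading members act in metabolism or have no assigned role in the annotation used here. GBSS1, the starch synthase that makes amylose and a known clock target, stood at 1.23, 14.1, 2.18 and 28.3 FPKM. It was the member among 16 starch genes, whose medians were 0.57 in Col-0 and -0.44 in mos2-2. SEX1 and ISA3, of starch breakdown, differed by 0.58 and 0.04 in Col-0 and by -1.41 and -1.66 in mos2-2. NDA1, an alternative NADH dehydrogenase of mitochondria, was at 1.54, 19.8, 5.96 and 49.3 FPKM.

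NPF6.4, of the nitrate and peptide transporter family, was at 1.15, 13.9, 4.97 and 39.7 FPKM, and G3Pp1, a glycerol-3-phosphate permease gene, at 1.46, 26.5, 3.31 and 24.2 FPKM. LEA3 stood at 0.494, 18.7, 0.928 and 24.9 FPKM. AT2G15020 stood at 0.119, 11.9, 0.297 and 18.0 FPKM, a ratio of 100-fold in Col-0 and 60.5-fold in mos2-2 that rests on very low replicate 1 levels. CAT2, a peroxisomal catalase, was at 28.8, 140, 87.7 and 292 FPKM. MYBL2, a repressor of anthocyanin synthesis, was at 12, 206, 52.9 and 160 FPKM.

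Lists of other processes held no member. This was so for heat shock, dark and sugar starvation, nitrate assimilation, flavonoid, aliphatic glucosinolate, salicylic acid defence, expansin and XTH, ELIP-like and cell cycle genes. These lists held between 1 gene (heat shock) and 20 genes (expansin and XTH) averaging at least 5 FPKM. Members were 0.953% of all such genes, so that lists of this size say little by holding none. The same holds for the evening clock, photosystem core and Calvin cycle lists above. The 9 reference genes had medians of 0.00 in Col-0 and -0.25 in mos2-2. All 16 aliphatic glucosinolate genes were above 0 in Col-0, with a median of 1.32, and 13 of 16 in mos2-2, with a median of 0.32. Genes of dark and sugar starvation had medians of 0.06 and -0.97. The expansin and XTH list held 2 genes that were lower in replicate 2 by the same limits. XTH31, which was not on that list, was a member at 0.952, 8.87, 4.05 and 13.9 FPKM.

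Some members overlap a neighbour or have a near-identical copy, and reads may be divided between them. In all, 47 members had an overlapping gene or a near-identical transcript, and 20 of these were longer members, 14 with an overlap and 6 with a near-identical transcript. When each was summed with its partners, 125 of the 135 still met the rule. The 10 that did not were the longer members UP6, STH, ORA47, AT5G67140, GolS1, LNK1 and AT3G05080 and the short RNA genes AT3G52345, AT2G35742 and AT2G07792. LNK1 and AT5G64160, which overlap, summed to 27, 39.6, 37.8 and 42.1 FPKM, and the partner alone was at 26.5, 21.6, 32.6 and 20.2 FPKM. STH and AT2G31390 summed to 29.3, 50.9, 19.4 and 104 FPKM. In some cases a sum can fail the rule merely because the partner stands far above the member. GolS1 overlaps ARF1A1C, which was at 269, 226, 270 and 295 FPKM. Whether reads were shared was not tested. LNK2, LNK3, LNK4, LHCB2.3 and CH1 overlap other genes and met the rule in the sum. Within 10000 nt of each other lay 6 pairs of longer members, among them LTP3 and LTP4, and AT5G01790 and CIPK14.

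The comparison of mos2-2 with Col-0 did not enter the rule and was tested over all genes. With limma on log2(FPKM + 1), 12 of 19236 genes passed an adjusted p of 0.05 (0.0624%), and none of the 135 members did. At an unadjusted p under 0.05, no member was higher, against 1.66% of all genes, and 3 were lower, against 5.36%. The 3 were the defensins. PDF1.2c averaged 5285 ± 5574 FPKM in the wild type against 54.7 ± 48.1 FPKM in the mutant (SD over 2 libraries of each), a log2 difference of -6.32 (SE 1.14, limma adjusted p 0.569). PDF1.2 and PDF1.2b differed by -6.09 (SE 1.25, limma adjusted p 0.602) and -5.61 (SE 1.12, limma adjusted p 0.597). The difference between replicates that chose the members is part of the residual spread in this test.

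Counts without overlap gave the same 3 lower genes. The rule asks for a wide spread within each genotype, which makes a lack of overlap rare among members. The low counts are therefore no separate result. Both mos2-2 values lay above both Col-0 values in 1 member, against 13.1% of all genes tested, and below in 3, against 24.7%. The higher one was the 75-nt small nucleolar RNA gene AT2G43141, at 0, 173, 345 and 1131 FPKM. For the other longer members the genotypes overlapped. LNK3 averaged 9.11 ± 12.3 FPKM in the wild type and 33.1 ± 43.1 FPKM in the mutant (SD over 2 libraries of each), a log2 difference of 1.58 (SE 1.81, limma adjusted p 0.872). LHCB2.1 averaged 1546 ± 2127 and 2858 ± 3148 FPKM, with a log2 difference of 2.31 (SE 2.22, limma adjusted p 0.846). ZIP4 averaged 51.0 ± 61.7 and 113 ± 130 FPKM, with a log2 difference of 1.24 (SE 1.55, limma adjusted p 0.881). All 3 changed sign without Col-0 replicate 1, to -0.29, -0.77 and -0.51, and LNK3 and ZIP4 also without mos2-2 replicate 2, to -0.50 and -0.38.

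Taken at each replicate number, the longer members leaned to mos2-2. In 57 of 97 (58.8%) the mos2-2 value was above the Col-0 value at both numbers, against 21.8% of all genes tested, and in 21 (21.6%) it was below at both, against 36.7%. In replicate 1 mos2-2 was higher for 73 of the 97 and in replicate 2 for 59. The median difference of mos2-2 from Col-0 was 0.70 in replicate 1 and 0.37 in replicate 2, on the log2(FPKM + 1) scale, against -0.13 and -0.05 over all genes tested. Over both replicates it was 0.64 for the longer members, 0.17 for all 135 and -0.09 for all genes tested. The labels do not say that a number pairs libraries of the genotypes, and these members vary together, so the counts are descriptions. The median over all 135 changed sign without Col-0 replicate 1, to -1.15, and without mos2-2 replicate 2, to -0.93. Without Col-0 replicate 2 it was 2.09, and without mos2-2 replicate 1 it was 1.97. The rule makes replicate 1 the lower library of each genotype, so these shifts take the direction that it sets.

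**Figure D5:**
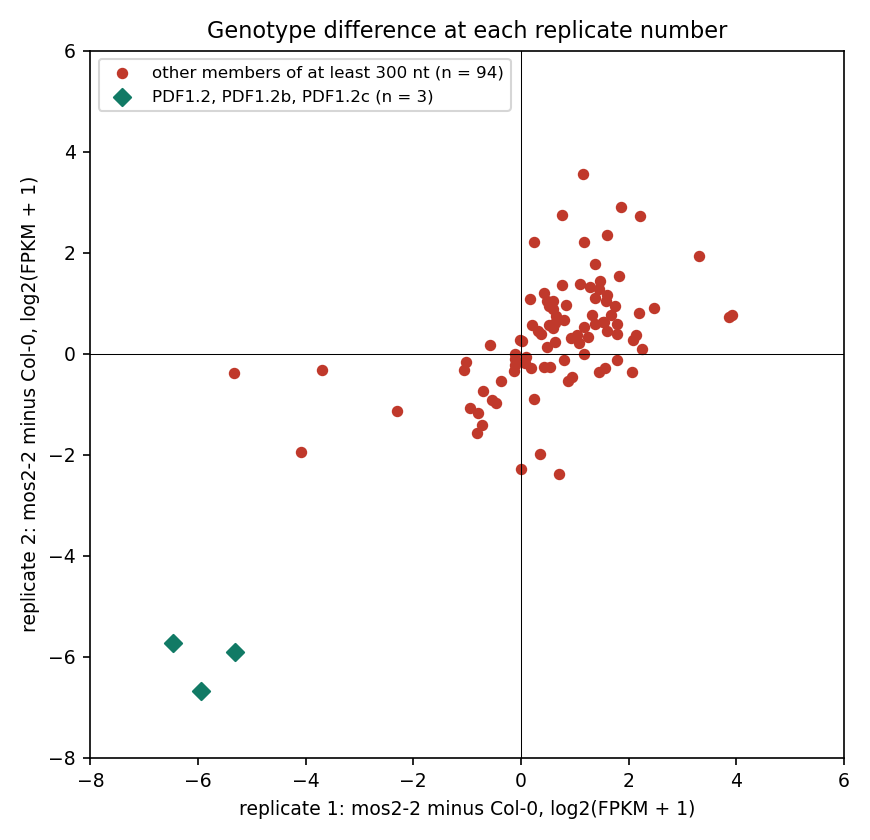
Difference of mos2-2 from Col-0 on the log2(FPKM + 1) scale in replicate 1 (horizontal) and replicate 2 (vertical) for the 97 members of at least 300 nt. Diamonds are PDF1.2, PDF1.2b and PDF1.2c, below 0 on both axes, and 57 of the other points lie above 0 on both axes.

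The longer members furthest towards mos2-2 were SQP1, a squalene monooxygenase gene, at 0.891, 19.5, 17.8 and 77.0 FPKM, with a log2 difference of 2.62 (SE 1.31, limma adjusted p 0.767), and AT1G62420, at 0.731, 7.05, 7.02 and 52.4 FPKM, with 2.47 (SE 1.15, limma adjusted p 0.753). After the defensins, the one furthest towards Col-0 was LTP4, at 51.5, 253, 2.09 and 65.3 FPKM, with -3.01 (SE 1.62, limma adjusted p 0.784). AT3G13240 followed, at 39.3, 125, 0 and 95.2 FPKM, with -2.86 (SE 2.19, limma adjusted p 0.815). LTP3, the neighbour of LTP4, stood at 74.1, 215, 4.80 and 171 FPKM, with -2.01 (SE 1.66, limma adjusted p 0.826). Without mos2-2 replicate 1, AT3G13240 and LTP3 turned to 0.44 each. In none of these were both values of 1 genotype above both values of the other.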

How the data were processed

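Libraries of mRNA from whole seedlings were sequenced on an Illumina GAIIx, 2 per genotype, per the labels' protocols. The authors deposited FPKM per gene, made with TopHat and Cuffdiff on TAIR10, per the submitters' processing notes. Not given in the sources used here were tool versions, the annotation, strandedness and the handling of multiply mapped reads. The deposited FPKM were used with no further scaling, with a pseudocount of 1 on the log2 scale, so that changes of low genes are understated. An exact 0 is given as listed at 0.

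The members and all gene lists were chosen with earlier results of these data known. Names, lengths and coordinates came from the RefSeq annotation of TAIR10.1, matched by locus for 32810 loci, with 747 unmatched. Named genes were the 12 members with the largest smaller difference, up to 6 members per list, up to 4 other genes of such lists with the smallest difference, the 3 nearest to the limit on each side, the 3 most equal and unequal, members whose sum with a partner failed the rule, and the members with the smallest genotype p among those without overlap. Every other gene named, the metal and nicotianamine synthase families and the zinc element among them, was chosen after its values were seen.

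The genotype test used limma 3.58.1 in R 4.3.3 on genes averaging at least 1 FPKM, genotype as the only term, a mean trend, two-sided tests and Benjamini-Hochberg adjustment over 19236 genes, with 2 residual degrees of freedom. It was also run on simulated data with the same spread for every gene and no difference shared by replicates. That run does not show how the test treats the members. Near-identical partners had a blastn 2.17.0 match of at least 90% identity over at least 70% of the spliced transcript. Protein comparison had been planned, and transcripts were used in its place. Motifs were searched on both strands in the 250 bases before the annotated start. Relative depth is the commonest ratio of values between 0.01 and 0.6 FPKM. Python 3.11.15 and pandas 2.3.3 were used.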

Additional observations from a re-analysis of the deposited data

How the results depend on the processing

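The 135 genes became 149 with a pseudocount of 0.1, 154 with median-ratio scaling and 147 with quantile normalization, each including all 135, and 95 with a pseudocount of 5. They were 160 at a minimum mean of 1 FPKM, 62 at 20 FPKM, with a limit of 1 256, with a limit of 2 90, with partners summed 125, and with loci of at least 300 nt, an alternative chosen after seeing the data, 97. Genes called between genotypes, 12 as reported, were 4 with a pseudocount of 5, 91 with no filter on low values, 7 with no trend, 0 with genes of at least 300 nt, 6 with the replicate block and 0 without any 1 library, where 788 to 1743 had an unadjusted p under 0.05. No member was called under any of these settings. With the replicate block 53 of the 135 members had an unadjusted p under 0.05, 41 higher and 12 lower in mos2-2, against 1930 of all 19236 genes. The block takes out the replicate difference common to both genotypes, by which the members were chosen. The larger count among members is therefore no separate result. The correlation of same-numbered libraries was 0.211 over 19236 genes, across only 2 pairs. The single member above without overlap became 2 with quantile normalization, 0 among members of at least 300 nt, and between 1 and 76 with 1 library left out; the members below were between 3 and 70. The median genotype difference, 0.17, lay between 0.12 and 0.28 with other pseudocounts and scalings. It lay between -1.15 and 2.09 with 1 library left out, reversed without Col-0 replicate 1 (-1.15) and without mos2-2 replicate 2 (-0.93). By the rule, replicate 1 is the lower library of each genotype. This sets the direction of these shifts and of the changes in the counts without overlap. The genotype differences of 12 named members kept their direction in all 107 comparisons with other settings and in 41 with 1 library left out, and reversed in 7. With 1 library left out, LNK3 lay between -0.50 (without mos2-2 replicate 2) and 3.65, LHCB2.1 between -0.77 (without Col-0 replicate 1) and 5.38, and ZIP4 between -0.51 (without Col-0 replicate 1) and 2.99. LNK3 without Col-0 replicate 1 was at -0.29 and ZIP4 without mos2-2 replicate 2 at -0.38. AT3G13240 lay between -6.15 and 0.44 and LTP3 between -4.46 and 0.44, both reversed without mos2-2 replicate 1. With 50 bases after the start included, the members' share stayed on the same side of that of all promoters for 10 of 12 motifs. The CCA1-binding site went to 8.25% against 7.88% and the telo-box to 3.09% against 3.60%. Depth limits the members near 0 in Col-0 replicate 1 and the 72-nt RNAs, most of whose values come in steps.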
